A study of Mus musculus with 4 samples.

Results

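The genes described here are the 4 neutrophil-attracting CXC chemokines *Cxcl1*, *Cxcl2*, *Cxcl3* and *Cxcl5* and their receptor *Cxcr2*. They were chosen by gene symbol, as 5 of the 24346 symbols measured by RNA sequencing in dorsal skin. All mice were male C57BL/6 animals that started, at 8 weeks of age, 3 weeks on the NASH diet, which is rich in fat and cholesterol and holds a bile salt, and whose dorsal skin then received imiquimod (IMQ) cream for 1 day. In the Cont-IMQ group the diet held nothing further, and in the 7KC-IMQ group it also contained 7-ketocholesterol (7KC), an oxidized form of cholesterol. There were 4 libraries, replicates 1 and 2 of each group. IMQ, an agonist of the receptor TLR7, is applied to mouse skin as a model of psoriasis-like dermatitis. Both groups received the NASH diet and IMQ, and skin without IMQ is not analysed here, so the comparison is of 7KC within treated skin and not of IMQ itself. Nothing in the sources used here says whether a library came from a single animal, so the p-values measure only the spread between these samples.

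CXC chemokines of this group carry a glutamate-leucine-arginine (ELR) motif near the amino terminus and bind CXCR2, a G protein-coupled receptor on the neutrophil surface, which drives the migration of the cell toward the chemokine source. In skin they are made by keratinocytes, fibroblasts, endothelial cells and myeloid cells in response to IL-1, TNF and IL-17, through NF-kB, and their short-lived mRNAs are further controlled by RNA-binding proteins. In psoriatic and IMQ-treated skin these signals are known for the neutrophils that gather in the epidermis.

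The 4 ligand genes lie together on the plus strand of mouse chromosome 5 (GENCODE M21 annotation of GRCm38). Their order is *Cxcl5* (ENSMUSG00000029371.7, chr5:90759360-90761624), *Cxcl3* (ENSMUSG00000029379.10, chr5:90786103-90789600), *Cxcl1* (ENSMUSG00000029380.11, chr5:90891241-90893115) and *Cxcl2* (ENSMUSG00000058427.10, chr5:90903871-90905938). *Cxcr2* (ENSMUSG00000026180.8, chr1:74153989-74161246) is on the plus strand of chromosome 1. Each ligand gene has 4 exons in its coding transcript, and the coding sequence runs from 288 bases in *Cxcl1* and 300 bases in *Cxcl2* and *Cxcl3* to 396 bases in *Cxcl5*. The *Cxcr2* coding transcript has 3 exons and 1077 coding bases. *Cxcl2* and *Cxcl3* are the closest pair, with 89.7% identical bases over the aligned coding sequence, while the other 5 pairs of ligands range from 74.6% to 79.2%. This closeness bears on the measurement, because 4.57% of the 75-base windows of *Cxcl2* transcripts also occur in *Cxcl3* and 2.78% of those of *Cxcl3* occur in *Cxcl2*. No window of *Cxcl1* occurred in another gene, and the share was 0.623% for *Cxcl5* and 1.81% for *Cxcr2*. How reads that fit more than 1 gene were divided is not given in the sources used here.

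The promoters of *Cxcl1*, *Cxcl2* and *Cxcl3* are shown because these 3 genes differed most between the groups and because NF-kB is their best known activator. Each sequence is the 130 bases before the RefSeq transcript start on the plus strand of GRCm38.p6, 5′ to 3′, with the matches to the NF-kB like letters GGNNTTTCC (either strand) in capitals. The positions are chr5:90891115-90891244 for *Cxcl1*, chr5:90903769-90903898 for *Cxcl2* and chr5:90785971-90786100 for *Cxcl3*.
Cxcl1: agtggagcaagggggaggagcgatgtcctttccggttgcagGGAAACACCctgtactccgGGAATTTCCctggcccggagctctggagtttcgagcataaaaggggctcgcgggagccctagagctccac
Cxcl2: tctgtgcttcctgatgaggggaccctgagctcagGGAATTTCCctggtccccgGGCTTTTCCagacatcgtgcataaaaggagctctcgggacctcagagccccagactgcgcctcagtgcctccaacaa
Cxcl3: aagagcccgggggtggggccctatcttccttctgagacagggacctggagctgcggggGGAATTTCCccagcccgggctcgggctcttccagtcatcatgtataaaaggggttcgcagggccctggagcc

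The same 9 letters, GGAATTTCC, stood in all 3 promoters, beginning 70 bases before the start in *Cxcl1*, 96 in *Cxcl2* and 72 in *Cxcl3*. *Cxcl1* held a further match on the minus strand at 89 bases, and *Cxcl2* a further one on the plus strand at 77 bases. RefSeq windows of 250 bases before to 50 bases after the start were found for 4 of the 5 genes (not *Cxcl5*), and the *Cxcr2* window held no match to these letters. Over all 32851 mouse windows in the same table, 5.82% held a match. Over these whole windows the 3 ligands were alike at 75.6% to 78.8% of aligned bases, so the shared letters are not separate observations. The other motifs were searched on both strands, and none of them overlapped an NF-kB like match. An AP-1 like match (TGANTCA) was in none of the 4 windows, against 7.81% of all windows. A C/EBP like match (TTNNGNAA) was in *Cxcl2* alone, at 236 bases before the start, against 40.7% of all windows, and TATAAA was in *Cxcl3* alone, at 30 bases, against 13.6%. A match is a description of letters, and binding was not measured.

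The deposited unit is FPKM, the fragments per kilobase of transcript scaled to the mapped fragments of each library, which allows levels to be compared between genes. Depth estimated from the steps of the low values was 15000000 to 16290000 reads per library, and between 7185 and 7388 symbols were listed at 0. The samples carried the keratinocyte genes of skin at high level, with *Krt5* between 2544 and 3062 FPKM and *Krt14* between 4132 and 5700 FPKM. Both Cont-IMQ libraries stood apart in hair follicle genes, in opposite directions. The 6 markers summed to 90.6 FPKM in Cont-IMQ replicate 1 and 1350 FPKM in replicate 2, against 361 and 319 FPKM in the 7KC-IMQ libraries. The part of this difference in the results was not tested. Values without each of the Cont-IMQ libraries are given beside the fold changes of *Cxcl1*, *Cxcl2*, *Cxcl3* and *Cxcr2* and most of their ratios. For the gene lists and the neighbouring genes no such values are given. A library in which fewer cells express a gene cannot be told apart from one with less RNA per cell, since these are bulk samples.

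The mean FPKM of *Cxcl1*, *Cxcl2* and *Cxcl3* in the 7KC-IMQ group was 2.48 to 3.6 times that in the Cont-IMQ group. For *Cxcr2* the ratio of the means was 1.52. None of the 5 genes passed the test after adjustment for all genes. Of 15896 genes tested by limma on log2(FPKM + 1), 1 had an adjusted p under 0.05 (0.00629%), and the smallest adjusted p among the 5 genes was 0.331. Before adjustment, *Cxcl1*, *Cxcl2*, *Cxcl3* and *Cxcr2* had a p under 0.05 and were higher, which held for 4 of 5 genes here and for 7.5% of all genes tested (1192 genes, beside 869 lower). With every library rescaled to the same FPKM sum, that split over all genes was 638 higher and 1230 lower, and the same 4 genes had a p under 0.05. In all 5 genes the lower 7KC-IMQ value exceeded the higher Cont-IMQ value, as it did in 23.9% of all genes tested. The median log2 fold change was 1.16 over the 5 genes and -0.01 over all genes tested.

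**Figure D1:**
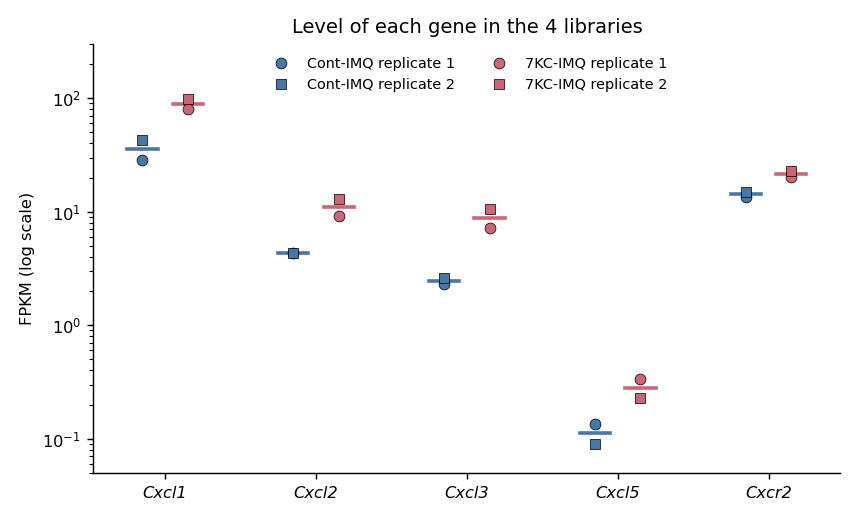
FPKM (log axis) of the 4 ligands and their receptor in each library, with circles for replicate 1, squares for replicate 2 and a line at the mean of each group (n = 2). The libraries of the 7KC-IMQ group lie above those of the Cont-IMQ group for every gene, and *Cxcl5* lies below 1 FPKM throughout.

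*Cxcl1*, which encodes KC, was the ligand with the highest level. It measured 28.8 and 42.8 FPKM in the pair of Cont-IMQ libraries, against 79.6 and 98.1 FPKM with 7KC, where here and in all pairs of values replicate 1 comes first. Both 7KC-IMQ libraries were above both Cont-IMQ libraries, which themselves were unequal. The means were 35.8 ± 9.95 and 88.9 ± 13.1 FPKM (SD, n = 2 each), a ratio of 2.48. The log2 fold change was 1.31 with a standard error of 0.22 and a 95% confidence interval of 0.73 to 1.88 (limma, unadjusted p = 0.00248, adjusted p = 0.352). Without Cont-IMQ replicate 2, the library highest in hair follicle genes, it was 1.59. Without Cont-IMQ replicate 1, the lowest in them, it was 1.03. By signed fold change, from the most increased gene to the most decreased, *Cxcl1* ranked 54 of the 15896 genes tested.

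*Cxcl2*, which encodes MIP-2, was at 4.31 and 4.36 FPKM (Cont-IMQ) against 9.25 and 12.9 FPKM (7KC-IMQ). The Cont-IMQ values were nearly equal and the 7KC-IMQ values lay clear of them, with more spread between the replicates. The means of 4.34 ± 0.0312 and 11.1 ± 2.58 FPKM (SD, n = 2 each) gave a ratio of 2.55. The log2 fold change was 1.16 (standard error 0.17, 95% confidence interval 0.71 to 1.61), with an unadjusted p of 0.00144 and an adjusted p of 0.352. It ranked 72 by signed fold change, and the log2 value was 1.17 without Cont-IMQ replicate 2 and 1.155 without replicate 1. An estimated 60 reads stood behind the value in each Cont-IMQ library and 137 and 176 reads in 7KC-IMQ replicates 1 and 2.

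*Cxcl3*, also a CXCR2 ligand, showed the highest ratio of the 5 genes. Its level was 2.33 and 2.6 FPKM (Cont-IMQ) against 7.22 and 10.5 FPKM (7KC-IMQ). The groups did not overlap, and the lower 7KC-IMQ library was far above the higher Cont-IMQ library. The means were 2.47 ± 0.189 and 8.87 ± 2.34 FPKM (SD, n = 2 each), a ratio of 3.6. Its log2 fold change was 1.49 with a standard error of 0.19, a 95% confidence interval of 0.99 to 1.99, an unadjusted p of 0.000795 and an adjusted p of 0.331. It ranked 40 by signed fold change, and the log2 value was 1.55 without Cont-IMQ replicate 2 and 1.43 without replicate 1. These levels correspond to about 29, 32, 96 and 129 reads, so *Cxcl3* rests on fewer reads than *Cxcl1*, for which the estimates were 330, 488, 978 and 1110.

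*Cxcl5*, which encodes LIX, was barely detected in dorsal skin at this time. The files gave 0.134 and 0.0906 FPKM in the pair of Cont-IMQ libraries, against 0.335 and 0.227 FPKM with 7KC. At the length of its coding transcript these values correspond to 2.81, 1.88, 7.51 and 4.69 reads, and they were taken as 3, 2, 8 and 5 reads, with the length fitted so that all 4 values came nearest to whole reads. Both Cont-IMQ libraries were thus at or under the floor of 3 reads. The summed reads, 5 in the Cont-IMQ group and 13 in the 7KC-IMQ group, gave a depth-scaled ratio of 2.52 with an exact 95% interval of 0.843 to 9.03, which covers counting error only and includes no difference. The log2 fold change of FPKM + 1 was 0.20 (standard error 0.11, 95% confidence interval -0.08 to 0.48), with an unadjusted p of 0.119 and an adjusted p of 0.495 by limma. Adding 1 to such low values shrinks the fold change, and with 0.1 added it was 0.84. A difference in *Cxcl5* was not detectable at this depth.

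*Cxcr2*, the receptor, was higher in the 7KC-IMQ group by a smaller factor than the 3 detected ligands. The values were 13.4 and 15.0 FPKM in the pair of Cont-IMQ libraries, against 20.2 and 23.0 FPKM with 7KC. Replicates were close within each group and the groups were apart. The means were 14.2 ± 1.17 and 21.6 ± 2.03 FPKM (SD, n = 2 each). The log2 fold change was 0.57 with a standard error of 0.11 and a 95% confidence interval of 0.28 to 0.86 (limma, unadjusted p = 0.00432, adjusted p = 0.352). It ranked 280 by signed fold change, and the log2 value was 0.65 without Cont-IMQ replicate 2 and 0.49 without replicate 1. About 411, 460, 664 and 698 reads lay behind these 4 levels.

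**Figure D2:**
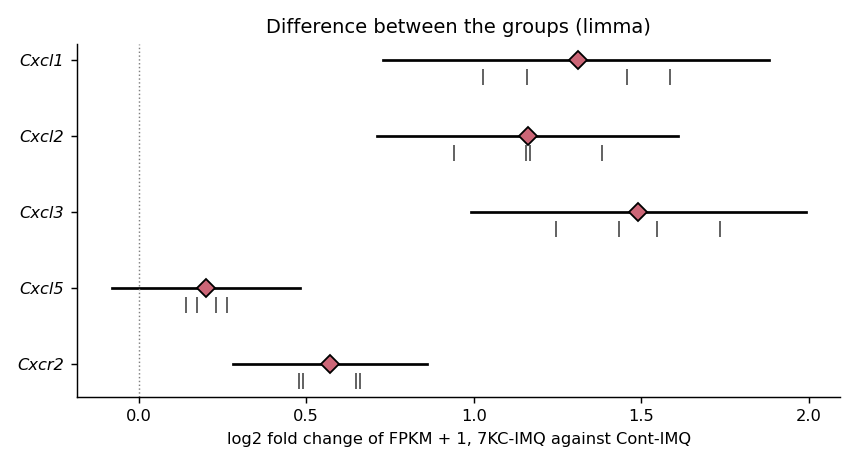
Log2 fold change of FPKM + 1 in 7KC-IMQ against Cont-IMQ skin for each gene (diamonds, n = 2 libraries per group) with its 95% confidence interval from limma (lines), and the 4 values obtained by leaving out each library in turn (ticks under each line). The intervals of *Cxcl1*, *Cxcl2*, *Cxcl3* and *Cxcr2* lie above 0, and that of *Cxcl5* runs from -0.08 to 0.48. Every tick is above 0, which follows from groups that do not overlap.

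The order of the levels was the same in both groups, *Cxcl1* first, then *Cxcr2*, *Cxcl2*, *Cxcl3* and *Cxcl5*. The ranges of neighbours in this order did not overlap in the Cont-IMQ group. In the 7KC-IMQ group the ranges of *Cxcl2* (9.25 to 12.9 FPKM) and *Cxcl3* (7.22 to 10.5 FPKM) overlapped, although *Cxcl2* was above *Cxcl3* within every library. The summed FPKM of the 4 ligands was 35.5 and 49.9 in the Cont-IMQ libraries and 96.4 and 122 in the 7KC-IMQ libraries. *Cxcl1* made up most of this sum in every library, with shares of 80.9% and 85.9% in the Cont-IMQ group and 82.6% and 80.6% in the 7KC-IMQ group. The share of *Cxcl3* was 6.56% and 5.21% in the Cont-IMQ group and 7.49% and 8.64% in the 7KC-IMQ group. Shares of *Cxcl2* overlapped between the groups, lying between 8.74% and 12.1% over the 4 libraries, and *Cxcl5* never exceeded 0.378%.

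Ratios between the genes within a library do not depend on how the library was scaled, and 10 pairs were compared. With 2 libraries against 2, the exact permutation test over libraries cannot give a two-sided p below 0.333. The ligand to receptor ratios of the 3 detected ligands were higher in both 7KC-IMQ libraries. *Cxcl1* was 2.15 and 2.85 times the *Cxcr2* level in the Cont-IMQ group and 3.95 and 4.26 times in the 7KC-IMQ group, a difference in the log2 ratio of 0.73 (SD within groups 0.21). For *Cxcl2* the ratio to *Cxcr2* was 0.322 and 0.29 in the Cont-IMQ group and 0.459 and 0.56 in the 7KC-IMQ group, a log2 difference of 0.73 (SD 0.16). For *Cxcl3* it was 0.174 and 0.173 in the Cont-IMQ group and 0.358 and 0.457 in the 7KC-IMQ group, a log2 difference of 1.22 (SD 0.18). In each of these 3 pairs the groups did not overlap and the exact permutation p was 0.333, adjusted p = 0.667 over the 10 pairs. Without Cont-IMQ replicate 2 the log2 differences were 0.93, 0.65 and 1.22 for *Cxcl1*, *Cxcl2* and *Cxcl3*. Without Cont-IMQ replicate 1 they were 0.53, 0.81 and 1.23 in the same order.

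Among the ligands themselves, the level of *Cxcl3* relative to *Cxcl2* was also apart between the groups. Its ratio was 0.54 and 0.596 (Cont-IMQ) against 0.78 and 0.815 (7KC-IMQ), a log2 difference of 0.49 with an SD within groups of 0.08 (exact permutation p = 0.333, adjusted p = 0.667). *Cxcl3* to *Cxcl1* differed by the same 0.49 with more spread (SD 0.24), and by 0.183 with 1 added to both FPKM values, from 0.0811 and 0.0607 in the Cont-IMQ group to 0.0907 and 0.107 in the 7KC-IMQ group (exact permutation p = 0.333, adjusted p = 0.667). Without Cont-IMQ replicate 2 these differences were 0.56 and 0.28, and without replicate 1 they were 0.42 and 0.70. *Cxcl2* relative to *Cxcl1* overlapped, at 0.15 and 0.102 in the Cont-IMQ group and 0.116 and 0.131 in the 7KC-IMQ group. The difference in its log2 ratio was 0.00 (SD 0.29, exact permutation p = 1), and it ranged from -0.279, without Cont-IMQ replicate 2, to 0.28 as each library was left out. The 4 ratios with *Cxcl5* overlapped between the groups, with an SD within groups of 0.53 to 0.72, on 2 to 8 *Cxcl5* reads a library.

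**Figure D3:**
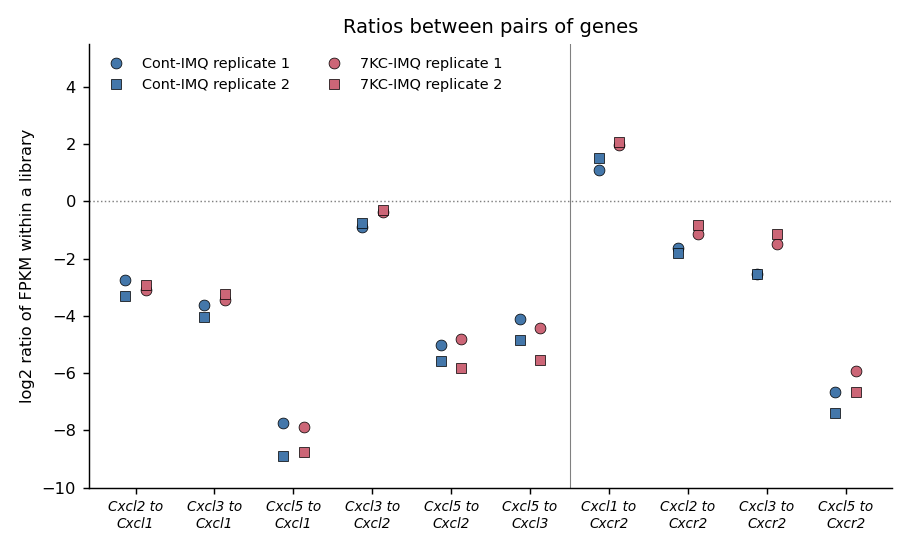
Log2 ratio of the FPKM of 2 genes within each library, for the 6 pairs of ligands (left of the line) and the 4 ligand to receptor pairs (right), with circles for replicate 1 and squares for replicate 2. The 7KC-IMQ libraries are above the Cont-IMQ libraries for *Cxcl3* to *Cxcl1*, *Cxcl3* to *Cxcl2* and the ratios of *Cxcl1*, *Cxcl2* and *Cxcl3* to *Cxcr2*. The groups overlap in the other 5 pairs. Pairs share genes and are not separate observations, and groups of 2 that do not overlap have an exact permutation p of 0.333.

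Of the other ligands and receptors of this chemokine group, the ligands were at or near 0 and the receptors were measurable. *Cxcl15*, which encodes lungkine, was listed at 0 in all 4 libraries, and *Ppbp*, whose product is made by platelets, was listed at 0 in 3 libraries and at 0.0757 FPKM in 7KC-IMQ replicate 2. *Cxcr1*, the other receptor of this chemokine group, was at 0.71 and 1.0 FPKM (Cont-IMQ) against 1.66 and 2.02 FPKM (7KC-IMQ). Its groups did not overlap, and the log2 fold change of 0.61 had an SE of 0.14 and an adjusted p of 0.356. *Ackr1*, a decoy receptor that binds these chemokines on venules and red blood cells, overlapped, with 17.4 and 14.8 FPKM (Cont-IMQ) against 17.2 and 15.3 FPKM (7KC-IMQ), and a log2 fold change of 0.01.

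The 13 annotated neighbours of the ligands on chromosome 5, including the 3 chemokine genes *Ppbp*, *Pf4* and *Cxcl15* that lie between them, were compared with them. Of the 8 neighbours tested, 0 had both 7KC-IMQ libraries above both Cont-IMQ libraries and 3 had both below, against 23.9% and 22.9% over all genes, and the median log2 fold change was -0.06. *Pf4*, which encodes platelet factor 4 and lies between *Cxcl5* and *Cxcl3*, was at 34.6 and 31.5 FPKM (Cont-IMQ) against 23.1 and 25.4 FPKM (7KC-IMQ), with a log2 fold change of -0.43 and adjusted p = 0.354. The nearest genes outside the cluster were *Rassf6*, with a log2 fold change of 0.12, and *Mthfd2l*, with 0.11, and the groups overlapped in both. The EGF family genes beyond them had values of 0.41 for *Epgn*, -0.23 for *Ereg*, 0.24 for *Areg* and -0.92 for *Btc*. *Btc*, encoding betacellulin, was at 10.3 and 10.9 FPKM (Cont-IMQ) against 6.97 and 3.72 FPKM (7KC-IMQ), with adjusted p = 0.356. On chromosome 1, 4 of 8 tested neighbours of *Cxcr2* were higher without overlap and 2 lower, beside 23.9% and 22.9% over all genes, with a median of 0.16. Of those 4, *Cxcr1*, 37.8 kb from *Cxcr2*, was the one with an unadjusted p under 0.05.

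**Figure D4:**
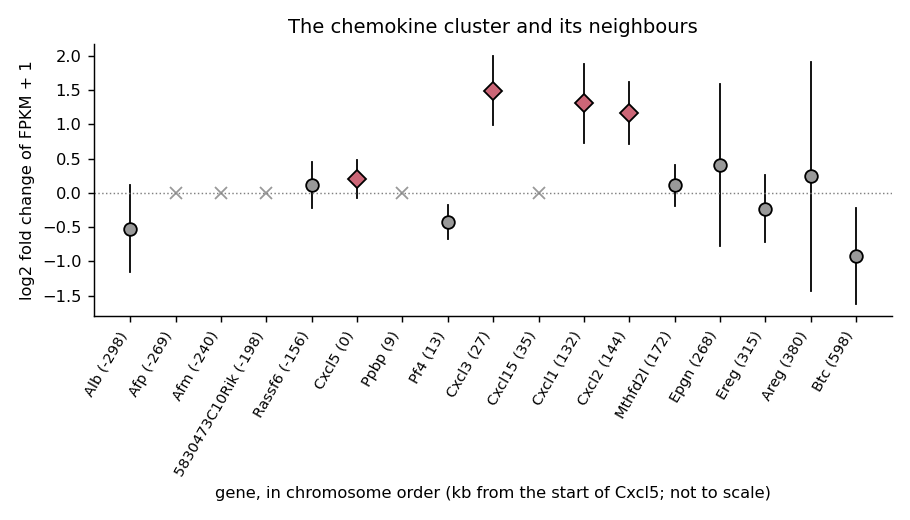
Log2 fold change of FPKM + 1 in 7KC-IMQ against Cont-IMQ skin for the 4 ligands (red diamonds) and their neighbours on chromosome 5 (grey circles), in chromosome order with the distance from the start of *Cxcl5* in kb, and 95% confidence intervals from limma (lines). Crosses at 0 mark genes too low to test, and *Cxcl3*, *Cxcl1* and *Cxcl2* have intervals above 0 while no neighbour does.

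The cytokines that are known to induce these chemokines were mostly higher as well. Of 9 tested, 7 had an unadjusted p under 0.05, were higher and did not overlap, and 0 passed adjustment. Over all genes 7.5% were higher at that p and 23.9% without overlap. The median log2 fold change of the 9 was 0.79. *Il17f* was at 1.34 and 1.02 FPKM (Cont-IMQ) against 5.08 and 6.33 FPKM (7KC-IMQ), a difference of 1.62 on the log2(FPKM + 1) scale (SE 0.15, adjusted p = 0.284). *Il17c*, an epithelial member of the family, was at 8.53 and 8.47 FPKM against 18.4 and 18.2 FPKM, a difference of 1.02 on the same scale (SE 0.08, adjusted p = 0.265). The groups were far apart in both genes. *Il17a* was low, at 0.0675 and 0.341 FPKM (Cont-IMQ) against 0.821 and 1.44 FPKM (7KC-IMQ), a log2 fold change of 0.82. *Il1a* had a log2 fold change of 0.88, *Tnf* of 0.79, *Il1b* of 0.76 and *Il36g* (listed as *Il1f9*) of 0.41, all without overlap. *Il36a* (*Il1f6*) and *Il36b* (*Il1f8*) overlapped between the groups. Of the 11 receptors and adaptors of these cytokines, 2 had an unadjusted p under 0.05, both higher, and 6 were higher without overlap, against the same 7.5% and 23.9%, with a median of 0.16. The genes under 0.05 were the IL-1 receptor *Il1r1*, at 13.5 FPKM in both Cont-IMQ libraries and 18.4 and 18.3 FPKM in the 7KC-IMQ libraries, and the adaptor *Myd88*, at 53.9 and 49.8 FPKM against 70.4 and 67.8 FPKM.

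Regulators that act on the chemokine genes or their mRNAs were also compared. Of 14 tested, 7 were higher and 2 lower without overlap, against 23.9% and 22.9% of all genes, 2 were higher and 2 lower at an unadjusted p under 0.05, against 7.5% and 5.47%, 0 passed adjustment, and the median log2 fold change was 0.12. *Zc3h12a*, whose product Regnase-1 degrades inflammatory mRNAs, was at 93.6 and 82.4 FPKM (Cont-IMQ) against 126 and 160 FPKM (7KC-IMQ), with a log2 fold change of 0.68 and adjusted p = 0.352. *Zfp36*, encoding tristetraprolin, which destabilizes mRNAs with AU-rich elements, was at 269 and 244 FPKM against 161 and 215 FPKM (log2 fold change -0.46, adjusted p = 0.372). These 2 mRNA decay factors thus differed in opposite directions, each without overlap of the groups. Among the transcription factors, *Nfkb1*, encoding the p105 and p50 forms of NF-kB, had a log2 fold change of 0.24, and *Rela* one of 0.09, both without overlap. *Fos*, a subunit of AP-1, was at 496 and 546 FPKM (Cont-IMQ) against 97.4 and 277 FPKM (7KC-IMQ), with a log2 fold change of -1.66 and adjusted p = 0.36. *Cebpb* and *Cebpd*, encoding C/EBP factors, were higher without overlap, with log2 fold changes of 0.53 and 0.48 and an unadjusted p of 0.0558 and 0.0569. The NF-kB inhibitors *Nfkbia* and *Tnfaip3* overlapped, as did *Nfkbiz*, and *Elavl1* and *Arid5a*, encoding mRNA-stabilizing proteins, had log2 fold changes of 0.12 and 0.34. Of 14 signal transducers downstream of CXCR2, 0 had an unadjusted p under 0.05, 4 were lower and 0 higher without overlap (22.9% and 23.9% over all genes), and the log2 fold changes ran from -0.26 for *Rac2* to 0.16 for *Pik3r5*.

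**Figure D5:**
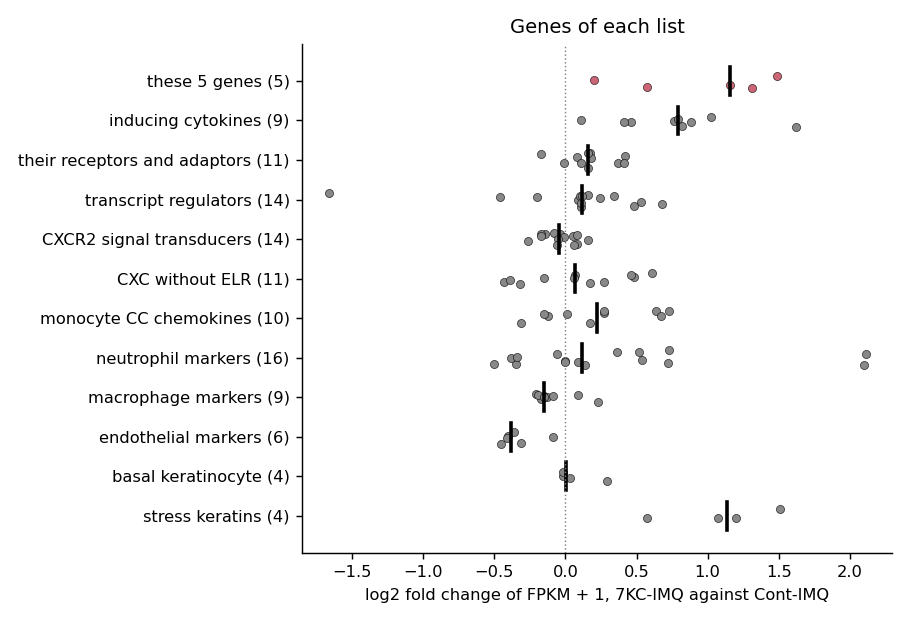
Log2 fold change of FPKM + 1 in 7KC-IMQ against Cont-IMQ skin for each tested gene of the lists described (points, number of genes in brackets), with a black line at the median of each list and a dotted line at 0. Medians are 1.16 for the 5 genes, 0.79 for the inducing cytokines, 0.11 for the neutrophil markers and -0.05 for the CXCR2 signal transducers.

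Genes that mark neutrophils were mixed. Of 19 markers listed, 16 were tested, 5 had an unadjusted p under 0.05 and were higher (7.5% of all genes), 8 were higher and 3 lower without overlap (23.9% and 22.9% of all genes), 0 passed adjustment, and the median log2 fold change was 0.11. Their summed level was 2697 and 2279 FPKM (Cont-IMQ) against 7337 and 13904 FPKM (7KC-IMQ), and nearly all of it was *S100a8* and *S100a9*, which keratinocytes also express. *S100a8* alone was at 1267 and 1037 FPKM (Cont-IMQ) against 3608 and 6775 FPKM (7KC-IMQ). Without this pair, left out after its values were seen, 14 markers were tested, of which 6 were higher and 3 lower without overlap and 3 had an unadjusted p under 0.05, all higher. The sum without the pair was 138 and 180 FPKM (Cont-IMQ) against 144 and 119 FPKM (7KC-IMQ), and most of it was *Il1r2*, a decoy receptor of IL-1, at 102 and 127 FPKM against 100 and 76.6 FPKM. *Csf3r*, the receptor of the neutrophil growth factor G-CSF, was at 3.8 and 3.64 FPKM (Cont-IMQ) against 3.93 and 4.5 FPKM (7KC-IMQ), a log2 fold change of 0.14. *Mmp8*, neutrophil collagenase, was at 0.346 and 0.816 FPKM against 1.08 and 1.49 FPKM (0.54), and *Clec4d* at 1.33 and 2.27 FPKM against 3.45 and 3.74 FPKM (0.73). *Retnlg* (0.72), *Camp* (0.52) and *Trem1* (0.36) were also higher without overlap. *Mmp9*, *Fpr1* and *Il1r2* were lower without overlap, with log2 fold changes of -0.50, -0.35 and -0.38. The granule genes were at or near 0, with *Ltf* and *Mpo* too low to test, *Ngp* at most 0.138 FPKM, *Camp* at most 0.682 FPKM and *Elane* at most 0.74 FPKM, and each of these 5 genes was listed at 0 in at least 1 library. The defining marker *Ly6g* is not analysed here. The part of neutrophil number in the level of *Cxcr2* was not tested.

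Markers of other cells that make or bind these chemokines were also compared. Macrophage and monocyte markers had 0 of 9 genes with an unadjusted p under 0.05, 2 lower without overlap and a median log2 fold change of -0.15, with sums of 740 and 919 FPKM (Cont-IMQ) against 712 and 783 FPKM (7KC-IMQ). Of the 6 endothelial markers, 5 were lower at an unadjusted p under 0.05 and without overlap, against 5.47% and 22.9% of all genes, 0 passed adjustment, and the median was -0.38. Their sums were 51.3 and 57.5 FPKM against 43.6 and 42.1 FPKM. Mast cell markers had 1 of 7 genes higher and 2 lower at an unadjusted p under 0.05 (7.5% and 5.47% of all genes), and fibroblast markers had 0 of 6. Basal keratinocyte markers had 0 of 4 genes with an unadjusted p under 0.05 and a median of 0.00. Stress keratins, which epidermal cells turn on in wounds and psoriasis, had 4 of 4 genes with an unadjusted p under 0.05 and higher, with a median of 1.14. *Krt6a* was at 385 and 542 FPKM (Cont-IMQ) against 741 and 1488 FPKM (7KC-IMQ), and *Krt16* at 1159 and 1333 FPKM against 2035 and 3368 FPKM. The part of these cell types in the ligand levels was not tested.

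Other chemokine families were compared in the same way. Among CXC chemokines without the ELR motif and their receptors, 11 genes were tested, 2 were higher and 1 lower at an unadjusted p under 0.05, against 7.5% and 5.47% of all genes here and for the families that follow, and the median log2 fold change was 0.07. *Cxcl9*, an interferon-induced chemokine for T cells, was at 10.7 and 11.3 FPKM (Cont-IMQ) against 16.0 and 18.7 FPKM (7KC-IMQ), with a log2 fold change of 0.61 and adjusted p = 0.352, while *Cxcl10*, *Cxcl12*, *Cxcl13* and *Cxcl14* overlapped. Monocyte-attracting CC chemokines and receptors had 3 of 10 genes higher and 1 lower at an unadjusted p under 0.05, with a median of 0.22. The 3 were *Ccl2*, at 78.0 and 73.9 FPKM against 119 and 135 FPKM (log2 fold change 0.73), *Ccl12* (0.67) and *Ccl7* (0.64), and the lower gene was *Ccl5* (-0.31). Among chemokines and receptors of lymphocytes and dendritic cells, 3 of 14 genes were higher and 2 lower at an unadjusted p under 0.05, with a median of 0.13. This list shares *Cxcl9*, *Cxcl10*, *Cxcl13* and *Cxcr3* with the list of CXC genes without the ELR motif, and *Cxcl9* is counted as higher in both. Whether these lists differ from the neutrophil-attracting chemokines was not tested.

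The genes whose values over the 4 libraries ran most like each of the 5 were found by the distance between centred log2(FPKM + 1) values, among 13109 other genes with a mean of at least 1 FPKM. Nearest to *Cxcl1* were *Bdkrb1*, the inducible bradykinin receptor (distance 0.246), *Steap1* (0.248) and *Psors1c2* (0.313). *Cxcl2* had *Gyk*, glycerol kinase (0.123), *Psors1c2* (0.146) and the kallikrein-related peptidase *Klk10* (0.184) nearest to it. For *Cxcl3* these were *Lcn2*, which encodes the siderophore-binding protein lipocalin 2 (0.22), *Lce3a*, a late cornified envelope gene (0.251), and again *Psors1c2* (0.252). *Psors1c2*, which ran close to all 3 ligands, was at 67.4 and 73.5 FPKM (Cont-IMQ) against 151 and 192 FPKM (7KC-IMQ). In likeness to *Cxcl1*, *Cxcl3* ranked 7 and *Cxcl2* 11, in likeness to *Cxcl2*, *Cxcl3* ranked 22 and *Cxcl1* 41, and in likeness to *Cxcl3*, *Cxcl2* ranked 10 and *Cxcl1* 15. In likeness to *Cxcl5* the other ligands ranked from 12776 to 12946. *Cxcr2* ranked 122 in likeness to *Cxcl1*, 154 to *Cxcl2* and 187 to *Cxcl3*. From the side of *Cxcr2* the ranks were far lower in the order, with *Cxcl1* at 10226, *Cxcl2* at 6490 and *Cxcl3* at 11868. The genes nearest to *Cxcr2* were *Dlk2* (0.0194), *Shb* (0.0397) and *Ranbp1* (0.0569), and those nearest to *Cxcl5*, whose log2(FPKM + 1) hardly varied, were *C030006K11Rik* (0.00502), *Jak2* (0.0189) and *Rbm12* (0.0247). Likeness over 4 libraries is a description, since many genes that separate the 2 groups by a like amount will run alike.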

How the data were processed

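RNA of dorsal skin was sequenced in 4 libraries, Cont-IMQ and 7KC-IMQ, replicates 1 and 2 of each, grouped by the sample labels. The authors prepared stranded mRNA libraries, mapped 75-base single-end reads to mm10, and deposited FPKM values per gene symbol. The submitters' processing notes name TopHat2 2.1.1, Bowtie2 2.2.8, SAMtools 0.1.18 and Cuffdiff 2.2.1. FPKM as deposited is already divided by depth and length, and no counts were used.

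Values entered as log2(FPKM + 1), unscaled, for the 15896 genes (all 5 described here among them) whose mean was at least 0.1 FPKM. The 7KC-IMQ group was set against the Cont-IMQ group in limma 3.58.1 (R 4.3.3; linear model, moderated with a mean-variance trend), two-sided, with Benjamini-Hochberg adjustment over all genes and a threshold of 0.05. Fold changes on this scale understate those of low genes. Ratios of pairs were compared by the exact permutation test over libraries. The fit was tested on simulated data, drawn independently for each gene and library. Those data held no difference in tissue make-up between libraries, such as that seen in hair follicle genes.

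Reads were estimated from the steps between low FPKM values in single-transcript genes, taking fragments of 200 bases. The depth was chosen to give the largest share of the genes used within 0.1 of a whole read. That share was 73.9% to 77%, against 20% by chance at a depth not so chosen. An FPKM worth 3 reads or fewer was taken as the floor. Intervals from reads cover counting error only. Gene positions came from GENCODE M21 (GRCm38) and promoter windows from RefSeq (GRCm38.p6).

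The genes and lists were chosen with earlier results of these data known. Genes named are the 5 genes, list genes, their annotated neighbours and the 3 genes nearest to each in profile. Alternatives were a pseudocount of 0.1, a minimum mean of 1 FPKM or none, median ratio scaling, the same FPKM sum, quantiles made equal, moderation without the trend, a block for the replicate number, and each library left out. Nothing in the sources used here ties equal replicate numbers to a common litter or batch, and same-numbered libraries deviated together with a correlation of 0.0776 over 13110 genes.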

Additional observations from a re-analysis of the deposited data

How the results depend on the processing

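Under the alternatives, the log2 fold changes of *Cxcl1*, *Cxcl2*, *Cxcl3*, *Cxcl5* and *Cxcr2* kept their direction in 59 of 59 values. All 59 also kept their side of the adjusted threshold. Many of these directions could not have changed. The groups did not overlap in any of the 5 genes, so leaving out 1 library could not reverse a difference. The filters, the fit without the trend and the block use the same fold change as the main fit. Leaving out each library in turn gave 1.03 to 1.59 for *Cxcl1*, 0.941 to 1.38 for *Cxcl2*, 1.25 to 1.73 for *Cxcl3*, 0.142 to 0.264 for *Cxcl5* and 0.478 to 0.661 for *Cxcr2*. The other settings gave 1.23 to 1.33, 1.09 to 1.31, 1.42 to 1.78, 0.192 to 0.836 and 0.492 to 0.599 in the same order. *Cxcl5* has no value with a minimum mean of 1 FPKM. Before adjustment, 4 of these 5 genes had a p under 0.05 in the settings that kept all libraries, and 5 with no filter. Leaving out a library also gave 4, but the lone library of its group is then assumed to vary like the other group, so that count says little about stability. With the replicate number as a block, the log2 fold changes were the same (1.31 for *Cxcl1*), the adjusted p-values lay between 0.394 and 0.564, and 978 genes were higher and 776 lower before adjustment. The numbers were not shown to pair the libraries.

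Over all genes, 2 passed adjustment with a pseudocount of 0.1, and 1 to 9 as each library was left out (9 without Cont-IMQ replicate 1 and 5 without replicate 2). Genes higher before adjustment numbered 638 at the same FPKM sum and 333 to 1190 with 1 library left out (678 without 7KC-IMQ replicate 1, 333 without replicate 2), and genes lower 282 to 1141 (459 and 282). The cause was not tested. The other scalings moved the median of all genes by less than 0.1 on the log2 scale (-0.0666 at the same FPKM sum).

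The log2 ratio differences of *Cxcl2* to *Cxcl1* (-0.146) and *Cxcl5* to *Cxcr2* (-0.367) changed sign with 1 added to both FPKM values. With 1 library left out, the differences ran from -0.279 to 0.28 for *Cxcl2* to *Cxcl1*, -0.582 to 0.563 for *Cxcl5* to *Cxcl1*, -0.53 to 0.51 for *Cxcl5* to *Cxcl2* and -1.05 to 0.0515 for *Cxcl5* to *Cxcl3*. In all of these pairs the groups overlapped. The 5 pairs whose groups did not overlap kept their direction with 1 added to both FPKM values. Leaving out 1 library could not reverse them, because their groups did not overlap. Depth limits *Cxcl5* most, at 2 to 8 reads a library.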
